A study of Homo sapiens with 6 samples.

Results

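Interferon-stimulated effector genes are the genes whose products carry out the antiviral response of a cell, such as the IFIT, OAS and MX families. The 52 genes of this list were followed on 6 Affymetrix U133 Plus 2.0 arrays of KHOS and U-2OS, both established human osteosarcoma lines. The list is one of named symbols, and the platform annotation gives 92 of the array's 54675 probe sets to 1 of these symbols alone. For each gene 1 probe set was used, the one whose mean level over the 6 arrays was highest, which gave 52 members among 19775 genes. The fits held those that reached a level filter, 51 members among 12958 genes. A further probe set, shared by IFITM1 and IFITM2, was left out of the list.

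Each line had 3 conditions with 1 array each. In the miR-1 arrays the cells had received miRSelect pEP-miR-1, a vector for the muscle microRNA miR-1, and in the miR-null arrays miRSelect pEP-miR-Null, its empty counterpart. Both were delivered with Lipofectamine LTX and Plus Reagent and left for 48 hours. For the control arrays no vector is named, and the sources used here do not say if Lipofectamine was added to them. RNA of 3 flasks was pooled for each array, so an array stands for a pool of cultures of 1 line and the spread between cultures is not seen.

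Type I and type III interferons are secreted when a cell senses foreign nucleic acid. They bind their receptors and activate the transcription factor complex ISGF3, which binds the interferon-stimulated response element in front of these genes. IRF factors can also switch on part of the set directly. The products bind viral RNA, degrade it, block translation, hold virions at the membrane or modify other proteins with ISG15. In tumour lines the set can be active without any virus.

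The agent and the promoters that the results turn on are shown first. The mature human microRNA that the miR-1 vector is named for is given from RefSeq (GRCh38.p14), with the seed, bases 2 to 8, in capitals.
hsa-miR-1-3p: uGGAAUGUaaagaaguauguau

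RefSeq promoter windows, from 250 bases before to 50 after a gene's start, were at hand for 41 of the 52 genes. The core of the interferon-stimulated response element was searched on both strands as GAAA, any 2 bases and GAAA again. It was present for 31 of those 41 genes (75.6%), against 4.38% of the 27305 genes with a window. A longer form, the core followed by CT, was present for 19 of the 41 (46.3%), against 0.322% of all genes. The gamma-activated site TTCNNNGAA, searched in the same way, was present for 12 of the 41 (29.3%), against 9.38% of all genes. In 9 genes 1 window held both the core and the gamma-activated site, and in 5 of these genes matches of the 2 motifs overlapped. A match is a description of the letters in the window and not a measured binding site.

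The 250 bases before the start of 5 genes are printed 5′ to 3′ on the gene's own strand, with matches of the core in capitals. They were chosen because RSAD2 had the largest difference between vector and control in KHOS, because IFIT1, IFI27 and BST2 moved in opposite directions in KHOS and U-2OS, and because ISG20 was higher in both lines. RSAD2 has more than 1 window, and a later listed one is printed, while for the other genes it is the first listed. The RSAD2 window printed lies at chr2:6877527-6877776 on the plus strand and has 1 match, on the opposite strand 145 bases before its start. IFIT1 lies at chr10:89392373-89392622 on the plus strand, with 2 matches at 116 and 103 bases before the start, both on the opposite strand. IFI27 lies at chr14:94110486-94110735 on the plus strand, with 2 matches at 108 and 95 bases, on opposite strands. BST2 lies at chr19:17405631-17405880 on the minus strand, with 2 overlapping matches at 130 and 124 bases. ISG20 lies at chr15:88638766-88639015 on the plus strand, with 1 match at 69 bases.
RSAD2: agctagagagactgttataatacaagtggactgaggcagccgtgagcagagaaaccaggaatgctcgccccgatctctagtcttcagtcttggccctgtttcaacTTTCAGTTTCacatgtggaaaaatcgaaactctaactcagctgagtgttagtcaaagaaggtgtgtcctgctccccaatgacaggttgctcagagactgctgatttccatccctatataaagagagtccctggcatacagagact
IFIT1: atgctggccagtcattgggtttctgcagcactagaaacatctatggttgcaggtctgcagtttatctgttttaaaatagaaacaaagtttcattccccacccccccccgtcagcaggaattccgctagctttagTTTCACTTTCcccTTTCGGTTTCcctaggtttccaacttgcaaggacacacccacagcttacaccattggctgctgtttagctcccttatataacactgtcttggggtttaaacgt
IFI27: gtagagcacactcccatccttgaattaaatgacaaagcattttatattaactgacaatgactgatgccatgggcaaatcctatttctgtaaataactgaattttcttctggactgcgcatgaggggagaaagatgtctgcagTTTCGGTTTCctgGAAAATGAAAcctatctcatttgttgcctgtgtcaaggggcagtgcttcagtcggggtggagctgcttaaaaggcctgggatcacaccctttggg
BST2: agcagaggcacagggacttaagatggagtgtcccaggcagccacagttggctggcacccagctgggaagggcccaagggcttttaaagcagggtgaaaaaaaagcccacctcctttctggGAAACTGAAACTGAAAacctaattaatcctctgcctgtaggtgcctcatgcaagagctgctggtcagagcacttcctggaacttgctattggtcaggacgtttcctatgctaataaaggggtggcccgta
ISG20: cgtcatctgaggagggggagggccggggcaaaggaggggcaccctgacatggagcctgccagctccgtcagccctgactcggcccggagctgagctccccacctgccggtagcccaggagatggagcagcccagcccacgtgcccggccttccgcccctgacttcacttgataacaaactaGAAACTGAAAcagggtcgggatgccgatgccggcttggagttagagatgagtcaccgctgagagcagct

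Values are log2 expression from the RMA method, so a difference of 1 is a 2-fold difference. Across the arrays values ran from 2.83 to 14.9 and the filter level, the median of all probe sets, was 5.11. Over probe sets, the correlation of 2 arrays was 0.978 to 0.996 within a line and 0.910 to 0.938 between lines. Of 14 osteoblast and mesenchymal markers measured, 9 reached the filter level, among them VIM (13.15 to 14.30), SPARC (10.64 to 12.06) and COL1A1 (10.07 to 12.07), while SP7, ALPL, IBSP, COL1A2 and COL3A1 had means below it. Some of them moved with a vector. CDH11 fell in KHOS, and in U-2OS RUNX2, COL1A1, SPARC, CDH2 and CDH11 fell and SPP1 rose. RUNX2, the osteoblast transcription factor, had 9.83 and 9.85 in KHOS against 8.98, and 4.23 and 4.72 in U-2OS against 6.74, and its line difference passed, as did that of SPP1 in the other direction. The part of these shifts in the members' differences was not tested. Of 8 blood and immune markers measured, of 10 listed, 3 reached the filter level on any array. These were HBB (7.07 to 7.40), LST1 (5.44 to 6.05) and CD3E (5.07 to 5.36). PTPRC, the pan-leukocyte surface phosphatase, lay between 3.53 and 3.75. The sum of the 8 log2 levels ran from 37.4 to 38.0 over the KHOS arrays and from 37.3 to 39.0 over the U-2OS arrays. Of 6 epithelial and 5 endothelial markers 3 each reached the filter level on any array.

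Of the 52 genes 51 reached the filter level, and GBP2 did not. Tests were made with limma on all 12958 genes at or above that level, and an adjusted p below 0.05 counts as passing. Within a line, the miR-1 and miR-null arrays together (the vector arrays) were set against the control array, with the spread taken from the miR-1 and miR-null arrays of each line. That spread rests on 2 residual degrees of freedom and includes any effect of miR-1. A value from a pool of cells cannot tell more responding cells from more RNA in each cell.

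In KHOS all 52 genes were higher on both vector arrays than on the control array, an order that held for 34.9% of all 19775 genes. The median difference of the vector arrays from control was 1.53 on the log2 scale over the 52 genes, against -0.02 over all genes, and the range was 0.12 to 3.98. Both vector arrays were at least 1.2-fold above control for 51 genes (11.3% of all genes), at least 1.5-fold for 45 (3.86%) and at least 2-fold for 34 (1.26%). By the mean of both, 4 genes differed by at least 8-fold, 17 by at least 4-fold, 24 by 2-fold to under 4-fold and 11 by less than 2-fold. The share of all genes by this mean is not given here. Of the 51 genes tested 37 rose and 0 fell, against 3.44% and 0.571% of all genes tested. With no level filter 37 were called as well. Without the KHOS miR-null array 13 genes rose, without the KHOS miR-1 array 29, and after a further quantile normalization 18. For these alternative fits the share over all genes is not given here, so their counts do not set members against other genes. There is 1 KHOS control array, and every difference here is taken from it.

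The map of levels shows how the 3 KHOS arrays stand apart from those of U-2OS.

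**Figure D1:**
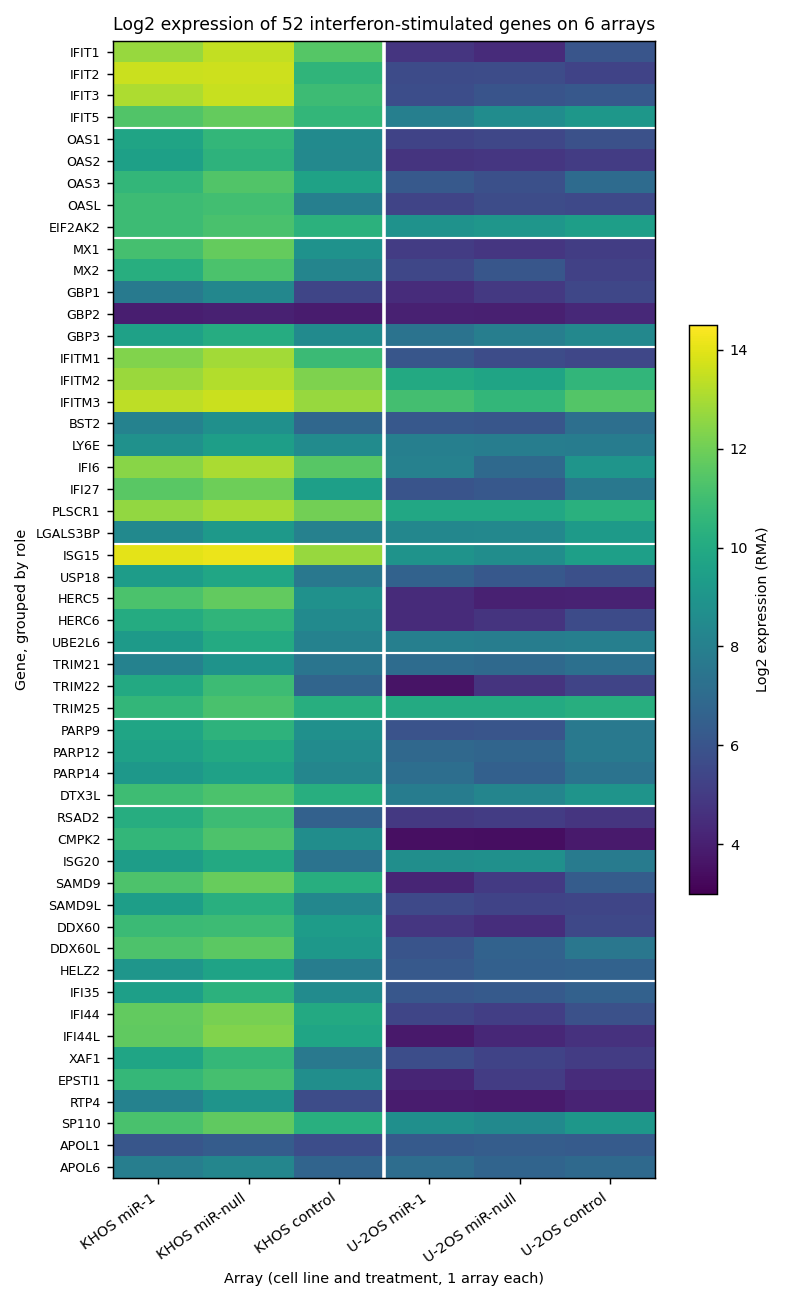
Log2 expression (colour) of the 52 genes in rows, grouped by role, on the 6 arrays in columns (1 array per line and treatment). Over the list the KHOS miR-1, miR-null and control arrays had medians of 10.40, 10.96 and 8.60, and those of U-2OS 6.04, 6.08 and 6.45.

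The IFIT proteins bind RNA with foreign 5′ ends and keep it from being translated. IFIT2 had log2 levels of 13.56 with miR-1 and 13.63 with miR-null in KHOS, against 10.51 in the KHOS control, and 5.64 and 5.68 in U-2OS, against 5.30 in its control. The rise in KHOS was 3.09 ± 0.16 (log2, SE), or 8.52-fold (adjusted p = 4.60e-04). IFIT3, which stabilizes IFIT1 in a complex, had 13.09 and 13.55 in KHOS against 10.87, and 5.72 and 5.98 in U-2OS against 6.16. IFIT1 itself, a cap-binding member, had 12.72 with miR-1 and 13.46 with miR-null in KHOS against 11.48, and 4.78 and 4.40 in U-2OS against 6.04. So IFIT1 rose in KHOS by 1.61 ± 0.29 and fell in U-2OS (-1.45 ± 0.29, adjusted p = 0.0183). IFIT5 had the smallest difference of the 4, 0.94 ± 0.28 in KHOS, and did not pass (adjusted p = 0.111). Its levels were 11.36 and 11.77 against 10.63 in KHOS and 7.96 and 8.60 against 9.09 in U-2OS.

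The OAS enzymes make 2′-5′ oligoadenylate on double-stranded RNA, which activates RNase L, and EIF2AK2 encodes PKR, the kinase that stops translation on the same trigger. Of these 5 genes 4 rose in KHOS. OASL, which lacks the synthase activity and binds RIG-I, had 10.88 with miR-1 and 11.02 with miR-null in KHOS against 7.95, a rise of 3.001 ± 0.19 (adjusted p = 8.65e-04). In U-2OS its levels of 5.34 and 5.68 lay on either side of the control at 5.54. OAS1 had 9.71 and 10.63 in KHOS against 8.50, and 5.29 and 5.44 in U-2OS against 5.85. OAS2 had 9.54 and 10.42 in KHOS against 8.40, and 4.73 and 4.83 in U-2OS against 5.04. In KHOS both of these synthases stood nearer to control with miR-1 than with miR-null. OAS3, the longest of the family, rose by 1.37 ± 0.31 in KHOS. EIF2AK2 had 10.90 and 11.20 against 10.38 in KHOS, a difference of 0.67 ± 0.19 that did not pass, and 8.85 and 9.06 against 9.47 in U-2OS.

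Among the antiviral GTPases, MX1, which blocks nucleocapsids of RNA viruses, had 11.12 with miR-1 and 11.80 with miR-null in KHOS against 8.87, and 5.05 and 4.81 in U-2OS against 5.08. MX2, which acts on incoming lentiviral capsids, had 10.20 and 11.22 in KHOS against 8.21, and 5.44 and 6.07 in U-2OS against 5.22. GBP1, a guanylate-binding protein induced above all by interferon gamma, had 7.68 and 8.31 in KHOS against 5.41, and 4.45 and 4.91 in U-2OS against 5.46. These 3 genes rose in KHOS by 2.59 ± 0.27, 2.50 ± 0.39 and 2.58 ± 0.28, and for GBP1 the control levels of both lines were close to the filter level. GBP3 rose by 1.34 ± 0.28. GBP2 stayed near the floor of the scale on every array, with 3.98 and 4.04 against 3.90 in KHOS and 4.07 and 4.02 against 4.33 in U-2OS.

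The membrane and secreted proteins had the lowest median change of the role groups in KHOS, 0.79, and 3 of 9 rose. IFI27, a mitochondrial and nuclear envelope protein, had 11.57 with miR-1 and 11.97 with miR-null in KHOS against 9.50, and 5.999 and 6.15 in U-2OS against 7.62. It rose by 4.83-fold in KHOS (log2 2.27 ± 0.21) and fell in U-2OS (-1.54 ± 0.21, adjusted p = 0.00525). BST2, the tetherin that holds budding virions, had 8.11 and 8.79 in KHOS against 6.85, and 6.18 and 6.09 in U-2OS against 7.18. The 2 lines had like BST2 levels under control conditions and ended on different sides of them. IFITM1, which blocks fusion of enveloped viruses, had 12.32 and 12.90 in KHOS against 10.84, and 6.08 and 5.69 in U-2OS against 5.47. For the probe set that IFITM1 and IFITM2 share the difference was 2.05 in KHOS and -0.77 in U-2OS cells. IFITM2, IFITM3, IFI6, PLSCR1 and LGALS3BP had differences of 0.68, 0.75, 1.25, 0.79 and 0.79 in KHOS that did not pass. LY6E, a GPI-anchored protein, had the smallest, with 8.84 and 9.47 against 8.54 in KHOS and 7.97 and 7.88 against 7.84 in U-2OS.

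All 5 genes of ISG15 and its conjugation rose in KHOS. ISG15, the ubiquitin-like modifier, had 14.03 with miR-1 and 14.16 with miR-null in KHOS, against 12.73, a rise of 1.37 ± 0.19. In U-2OS it had 8.93 and 8.64 against 9.51 and fell (-0.72 ± 0.19, adjusted p = 0.037). HERC5, the ligase that attaches ISG15, had 11.23 and 11.73 in KHOS against 8.83, and 4.40 and 4.08 in U-2OS against 4.11, where all 3 arrays lay below the filter level. HERC6, its relative, had 10.06 and 10.52 in KHOS against 8.50, and 4.41 and 4.73 in U-2OS against 5.62. USP18, which removes ISG15 and dampens the type I receptor, had 9.35 and 9.82 in KHOS against 7.61, and 6.63 and 6.17 in U-2OS against 5.80. USP18 was thus above control on both vector arrays of both lines, with a rise of 1.98 ± 0.25 in KHOS and a difference of 0.60 ± 0.25 in U-2OS that did not pass. UBE2L6, the E2 enzyme of the pathway, rose by 1.52 ± 0.28 in KHOS.

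TRIM22, an antiviral ubiquitin ligase, had 9.98 with miR-1 and 10.86 with miR-null in KHOS against 6.77, and 3.62 and 4.72 in U-2OS against 5.37. The rise in KHOS was 12.5-fold (log2 3.65 ± 0.45). TRIM21, a cytosolic antibody receptor, had 8.08 and 8.89 in KHOS against 7.48, and 7.07 and 6.94 in U-2OS against 7.24. TRIM25, the ligase that acts with RIG-I, had 10.60 and 11.20 in KHOS against 10.21, and 10.03 and 10.03 in U-2OS against 10.22. The differences of 1.01 and 0.69 in KHOS for these ligases did not pass.

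PARP9 and DTX3L form a complex that modifies histones, and their genes share a promoter region. PARP9 had 9.78 with miR-1 and 10.43 with miR-null in KHOS against 8.78, and 5.94 and 6.04 in U-2OS against 7.63. It rose in KHOS (1.32 ± 0.25) and fell in U-2OS (-1.65 ± 0.25). DTX3L had 10.91 and 11.22 in KHOS against 10.20, which did not pass, and 7.83 and 8.23 in U-2OS against 8.95, a fall of that gene (-0.92 ± 0.22). PARP12, a mono-ADP-ribosyltransferase, had 9.57 and 9.98 in KHOS against 8.57, and 6.89 and 6.74 in U-2OS against 7.75 (the changes were 1.20 ± 0.21 and -0.94 ± 0.21). PARP12 thus rose in KHOS and fell in U-2OS. PARP14, another such enzyme, had 9.14 and 9.57 in KHOS against 8.29, and 7.14 and 6.54 in U-2OS against 7.38, and passed in neither line.

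All 8 nucleic acid enzymes and restriction factors differed by at least 2-fold in KHOS, and 7 of them rose. RSAD2 encodes viperin, which makes a chain-terminating nucleotide. RSAD2 had 10.18 with miR-1 and 10.90 with miR-null in KHOS against 6.56, and 4.92 and 5.05 in U-2OS against 4.79. Its rise of 15.8-fold in KHOS (log2 3.98 ± 0.27, adjusted p = 9.52e-04) was the largest of the list. CMPK2, the mitochondrial nucleotide kinase encoded next to it, had 10.61 and 11.29 in KHOS against 8.63, and 3.45 and 3.42 in U-2OS against 3.85. ISG20, an RNA exonuclease, had 9.41 and 10.01 in KHOS against 7.39, and 8.67 and 8.79 in U-2OS against 7.79. ISG20 rose in KHOS (2.32 ± 0.24) and was the 1 gene of the list that also rose in U-2OS (0.93 ± 0.24, adjusted p = 0.0377). SAMD9, a restriction factor for poxviruses, had 11.27 and 11.82 in KHOS against 10.22, a difference of 1.32 ± 0.32 that did not pass. In U-2OS it fell, with 4.18 and 4.95 against 6.33 (-1.77 ± 0.32). DDX60 and DDX60L, a pair of helicase relatives, rose by 1.51 and 2.31 in KHOS, HELZ2, a transcriptional coactivator, by 1.47, and SAMD9L, a paralog of SAMD9, by 1.54.

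Of the other 9 genes 8 rose in KHOS. RTP4, a receptor transporter that binds viral RNA, had 8.11 with miR-1 and 8.94 with miR-null in KHOS against 5.66, and 3.88 and 3.83 in U-2OS against 4.15, where it stayed below the filter level. XAF1, a pro-apoptotic partner of XIAP, had 9.74 and 10.66 in KHOS against 7.65, and 5.71 and 5.33 in U-2OS against 5.04. IFI44L had 11.69 and 12.31 in KHOS against 9.76, and 3.77 and 4.28 in U-2OS against 4.64. These 3 genes rose in KHOS by 2.87 ± 0.30, 2.55 ± 0.34 and 2.24 ± 0.29. IFI44, IFI35, EPSTI1, APOL6 and SP110, a nuclear body protein, rose by 1.95, 1.40, 2.19, 1.39 and 1.20. APOL1, a trypanolytic apolipoprotein, had 6.08 and 6.35 in KHOS against 5.70, and 6.28 and 6.39 in U-2OS against 6.31, and did not pass.

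Of the 92 probe sets 88 had both KHOS vector arrays above control, and the 4 that did not had means of at most 4.50. In U-2OS 53 probe sets had both vector arrays below control. Counted by gene, these orders held for 34.9% of all genes in KHOS and 40.4% in U-2OS. The share over all probe sets of the array is not given here. Among the 26 genes with several probe sets, 3 had probe sets of different sign in KHOS and 15 in U-2OS, so the direction of a single gene in U-2OS depends more often on the probe set chosen.

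In U-2OS the same comparison gave mostly negative differences, with a median of -0.45 over the 52 genes, against 0.003 over all genes. Both vector arrays lay below control for 38 genes (40.4% of all genes) and above it for 8 (38.2% of all genes). Of the 51 genes tested 12 fell, where falls made up 11.7% of all genes tested, and 1 rose, against 3.23%. Both vector arrays were at least 1.2-fold below control for 29 genes (19.7% of all genes) and 1.2-fold above it for 4 (12.9%). At 1.5-fold 14 were below (7.24% of all genes) and 1 above (2.30%). At 2-fold 5 were below (1.71%) and 0 above (0.511%). Those that fell were SAMD9, PARP9, IFI27, IFI6, IFIT1, DDX60L, BST2, HERC6, PARP12, DTX3L, DDX60 and ISG15. On both U-2OS vector arrays SAMD9, IFIT1, HERC6 and DDX60 lay below the filter level. IFI6, a mitochondrial and reticulum protein that limits flavivirus replication, had 8.06 with miR-1 and 6.95 with miR-null in U-2OS against 9.02, and 12.47 and 13.06 in KHOS against 11.52. The U-2OS vector arrays of IFI6 lay apart from each other by 1.11 and both below control. For the alternative fits that follow, the share over all genes is not given here. Without either KHOS vector array 3 genes fell, after a further quantile normalization 6, and 21 when the prior variance was let follow the mean.

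**Figure D2:**
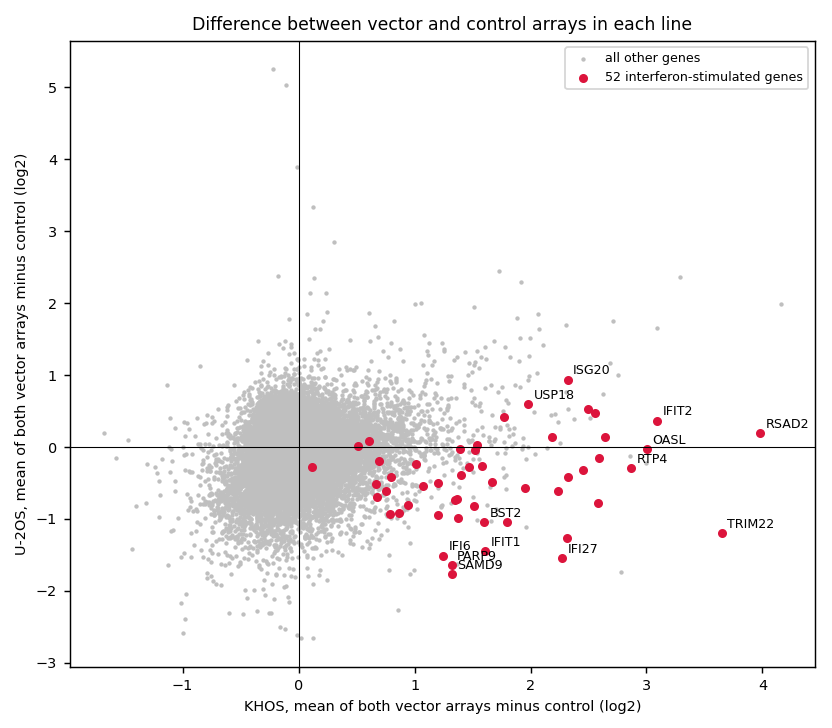
Mean of both vector arrays minus the control array (log2) in KHOS on the horizontal axis and in U-2OS on the vertical axis, for all genes (grey) and the 52 interferon-stimulated genes (red). All red points lie right of 0, from 0.12 to 3.98, and they lie between -1.77 and 0.93 on the vertical axis.

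Across the 52 genes the size of the change in 1 line went little with that in the other (Pearson 0.232, Spearman 0.255), which is a description, since the genes share their arrays. Both KHOS vector arrays were above control and both U-2OS vector arrays below it, each by at least 1.2-fold, for 29 of the 52 genes, against 1.81% of all genes. At 1.5-fold this held for 13 genes (0.288% of all genes), and at 2-fold for 4 genes, BST2, IFI27, IFIT1 and SAMD9, against 0.0303% of all genes. IFIT2, ISG20, USP18 and XAF1 were above control by 1.2-fold on the vector arrays of both lines, against 2.22% of all genes. This holds for the probe sets used in the fits. In U-2OS another IFIT2 probe set had 5.42 with miR-1 and 5.64 with miR-null against 5.43. Another XAF1 probe set had 3.91 and 4.63 against 4.50, while the other ISG20 probe set was above control on both (8.40 and 8.34 against 7.60).

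The difference between the lines was tested as the KHOS change minus the U-2OS change. It was positive for all 51 members tested, and for 8074 of all 12958 genes tested. The median was 2.08 over the members, against 0.14 over all genes tested. It passed for 26 of the 51, all larger in KHOS, where 2.00% of all genes tested passed in that direction and 0 of the 51 passed in the other (0.286%). TRIM22 had the largest value, 4.85 ± 0.64 (adjusted p = 0.0139), followed by IFI27 with 3.81 ± 0.29 (adjusted p = 0.00241), RSAD2 with 3.79 ± 0.38 and DDX60L with 3.58 ± 0.37. For 49 of the 51 the 95% interval of the difference lay above 0 before adjustment, where 22.3% of all genes tested had an unadjusted p below 0.05, and LY6E and APOL1 were the exceptions, with intervals from -0.28 to 1.33 and from -0.10 to 1.09. With the KHOS miR-null array dropped 2 genes passed, and with KHOS miR-1 dropped 4. With U-2OS miR-null dropped 43 passed, and with U-2OS miR-1 dropped 35. A further quantile normalization gave 4, and 47 passed when the prior variance was let follow the mean. Of the 26 genes MX1, HERC5, RSAD2, CMPK2, IFI44L and RTP4 lay below the filter level on all 3 U-2OS arrays and passed the filter through KHOS, so the U-2OS change in these 6 was taken near the floor of the scale. The other 20 reached the level on at least 1 U-2OS array. Of these, IFIT1, GBP1, HERC6, TRIM22, SAMD9 and DDX60 reached it on the U-2OS control array alone. Their U-2OS vector levels lay below it, such as 3.62 (miR-1) and 4.72 (miR-null) for TRIM22. The filter takes the mean over all 6 arrays, so the higher KHOS vector levels of these genes also counted towards it. Each line contributes 1 control array to this difference, and it could not be fitted without either of them. Shares over all genes are not given here for the fits with an array dropped or another setting.

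**Figure D3:**
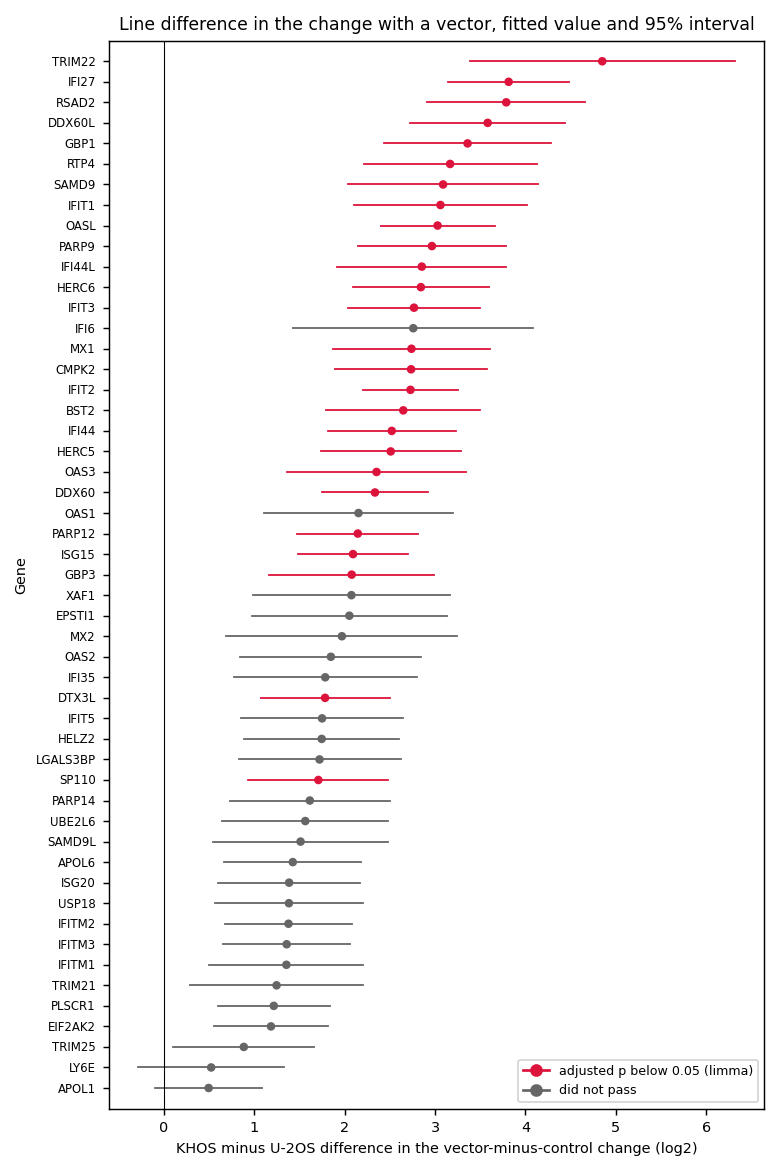
KHOS change minus U-2OS change between vector and control arrays (log2) for the 51 genes tested, as fitted value (point) with its 95% interval (line). The 26 genes in red passed after adjustment over all genes, and the intervals of LY6E and APOL1 include 0.

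By role, the line difference passed for 3 of 4 IFIT genes, 2 of 5 enzymes activated by double-stranded RNA, 3 of 4 tested GTPases, 2 of 9 membrane and secreted proteins, and 3 of 5 genes of ISG15 conjugation. It passed for 1 of 3 TRIM ligases, 3 of 4 genes of the PARP group, 5 of 8 nucleic acid enzymes and restriction factors, and 4 of 9 other genes. In genes with a core response element in the promoter window the KHOS change had a median of 1.51 (31 genes), and in those without one a median of 1.53 (10 genes). In U-2OS these medians were -0.72 and -0.33. Among the 582 genes outside the list with the core in a window the median KHOS change was 0.00, against -0.02 in the 14761 without it.

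The levels of the 2 lines were also set side by side. All 3 KHOS arrays lay above all 3 U-2OS arrays for 44 of the 52 genes, against 23.0% of all genes, and below them for 0, against 32.7%. Between the control arrays the median difference, KHOS minus U-2OS, was 1.75 over the 52 genes and -0.06 over all genes. Each side of this comparison is 1 array, and the fit takes its whole spread from the vector arrays, so its p-values assume that control arrays vary as those do. By it 38 of 51 genes were higher in the KHOS control, against 19.3% of all genes tested, and 1 was lower, against 17.4%. Of the 38, OAS2, MX1, HERC5, RSAD2, CMPK2, IFI44L, EPSTI1 and RTP4 lay below the filter level on all 3 U-2OS arrays. These 8 passed the filter through KHOS. IFIT1 had 11.48 in the KHOS control and 6.04 in the U-2OS control, a difference of 5.44 or 43.5-fold. IFITM1 and IFIT2 followed with 5.37 and 5.21. LGALS3BP, a secreted scavenger receptor protein, was the gene that was lower, with 8.04 in the KHOS control and 9.28 in that of U-2OS (difference -1.24 ± 0.32, adjusted p = 0.0161). On its vector arrays KHOS had 8.46 and 9.21, while U-2OS had 8.34 and 8.36. GBP1, GBP3, TRIM25, UBE2L6, TRIM21, APOL6, BST2 and ISG20 differed between the control arrays by at most 0.41 in either direction, and these did not pass. On the U-2OS control array 10 genes lay below the filter level, and on the KHOS control array 1.

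On the vector arrays the gap between the lines was wider. KHOS was higher for 49 of 51 genes, against 37.1% of all genes tested, and lower for 0, against 30.9%. The 49 include the same 8 genes that passed the filter through KHOS. For TRIM25 the result depends on the probe set, since the probe set used in the fits was higher in KHOS by 0.86 and a second one was lower (-0.74), and both passed.

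The miR-1 vector was compared with its empty counterpart, the contrast that asks for the effect of the microRNA itself. In KHOS all 52 genes were lower with miR-1 than with miR-null, an order seen in 61.3% of all genes, and for all 52 the miR-1 array lay between miR-null and control, against 17.8% of all genes. This holds for the probe set used for each gene. Of all 92 member probe sets 86 were lower with miR-1 in KHOS. Among those higher were probe sets of APOL6 (0.43), HELZ2 (0.72) and EIF2AK2 (0.07). The median difference in KHOS was -0.56, against -0.05 over all genes, and the range was -1.02 to -0.03. Taking 1.2-fold, which the design text names, as the least difference, 46 of the 52 were lower in KHOS, against 12.2% of all genes, by 1.5-fold 25, against 0.647%, and by 2-fold 1, MX2, against 0.0303%. In U-2OS the median was -0.004, with 27 genes lower (53.9% of all genes were) and 25 higher (46.1%). Since all 52 were lower in KHOS, these 25 had opposite signs in the 2 lines, as 29.6% of all genes had in that direction. Of the 52 genes 13 were lower by 1.2-fold (17.1% of all genes) and 12 higher by that fold (14.8%). These are differences between 2 arrays in each line, with no replicate.

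**Figure D4:**
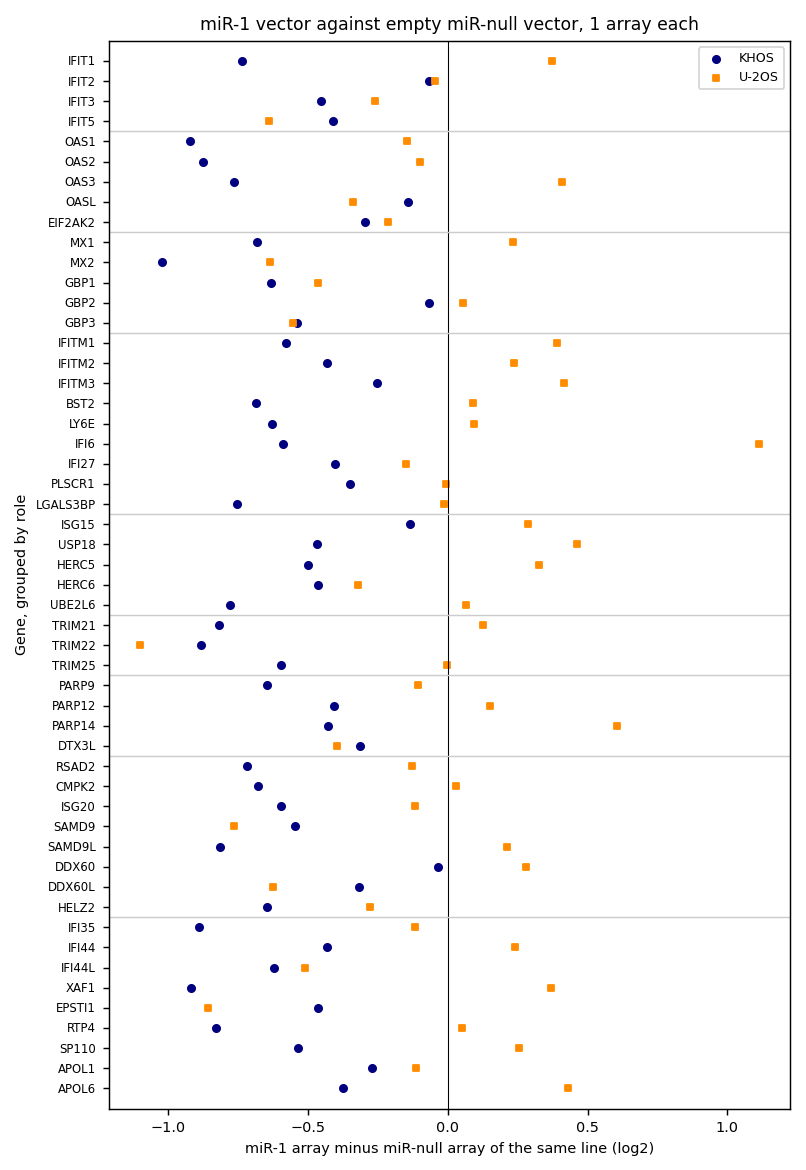
miR-1 array minus miR-null array (log2) for each of the 52 genes, grouped by role, in KHOS (blue circles) and U-2OS (orange squares), 1 array each. All KHOS points lie left of 0, between -1.02 and -0.03, and U-2OS points lie on both sides, between -1.10 and 1.11.

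Of the 52 genes 27 were lower with miR-1 in both lines, 12 of them by at least 1.2-fold, against 2.09% of all genes, and no gene was higher in both since none was in KHOS. At 1.5-fold MX2 and TRIM22 were left, against 0.0455% of all genes. With the levels given above, TRIM22 was lower with miR-1 in both lines (log2 -0.88 for KHOS, -1.10 for U-2OS), as was MX2 (-1.02 and -0.63). EPSTI1 had 10.65 with miR-1 and 11.11 with miR-null in KHOS (8.69 in control), and 4.18 and 5.04 in U-2OS (4.47 in control). Its miR-1 array in U-2OS thus lay below both others (-0.86 against miR-null). SAMD9 and IFI44L completed the 5 most negative, SAMD9 with -0.55 in KHOS and -0.76 in U-2OS, and IFI44L with -0.62 and -0.51. At the other end IFI6 was lower with miR-1 in KHOS (-0.59) and higher in U-2OS (1.11).

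In the fit over both lines no member passed between miR-1 and miR-null. The smallest adjusted p in limma was 0.9999 among the 51 genes, and 0 of them had an unadjusted p below 0.05, against 0.602% of all genes tested. The Mann-Whitney test that the design text names was run as the 2 miR-1 arrays against the 4 others, where its smallest exact p is 0.133, so it could call no gene. The median fitted difference was -0.30 over all 52 genes, and the typical 95% interval reached 1.24 to either side, and the residual spread of this additive fit includes the unequal response of KHOS and U-2OS to a vector. Leaving out 1 array turned the sign of this median in some cases. It became 0.42 with KHOS miR-null removed and 0.07 with U-2OS miR-1 removed, and it became -0.53 with KHOS miR-1 removed and -1.05 with U-2OS miR-null removed. Removing either control array left it at -0.30.

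Taken over both lines, the empty vector against control gave a median of 0.62 and both vectors against control one of 0.45, and 0 members passed in either fit. For both vectors 0.355% of all genes tested were higher and 0.123% lower. Unadjusted p-values below 0.05 were found for 8 of 51 genes with the empty vector (9.75% of all genes tested) and for 10 with both (20.0% of all genes tested). ISG20 came closest with both vectors, with 1.63 ± 0.31 (adjusted p = 0.0627). Without the U-2OS control array the comparison rests on KHOS, and without the KHOS control array it rests on U-2OS. With arrays left out in turn, both medians took either sign.

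Array controls moved as well and are given beside these results. Hybridization spike-ins, added to every sample at a set amount, averaged 9.93 (miR-1), 10.13 (miR-null) and 9.76 (control) in KHOS, and in U-2OS 11.65, 11.33 and 10.81. In KHOS they stood in the same order as the members, highest with miR-null and lowest in control. In U-2OS, where most members were lower with a vector, the spike-ins were higher by 0.68, against 0.27 in KHOS. A probe set for 28S ribosomal RNA had levels of 14.49 (miR-1), 14.07 (miR-null) and 13.68 (control) in KHOS, and in U-2OS 14.86, 14.58 and 13.79. Array medians lay between 4.98 and 5.15. The interquartile range of all probe sets was 3.36 (miR-1), 3.32 (miR-null) and 3.24 (control) in KHOS. In U-2OS it was 2.75, 2.84 and 3.07, so with a vector it was wider in KHOS and narrower in U-2OS. The part of these controls and of this range in the members' differences was not tested.

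**Figure D5:**
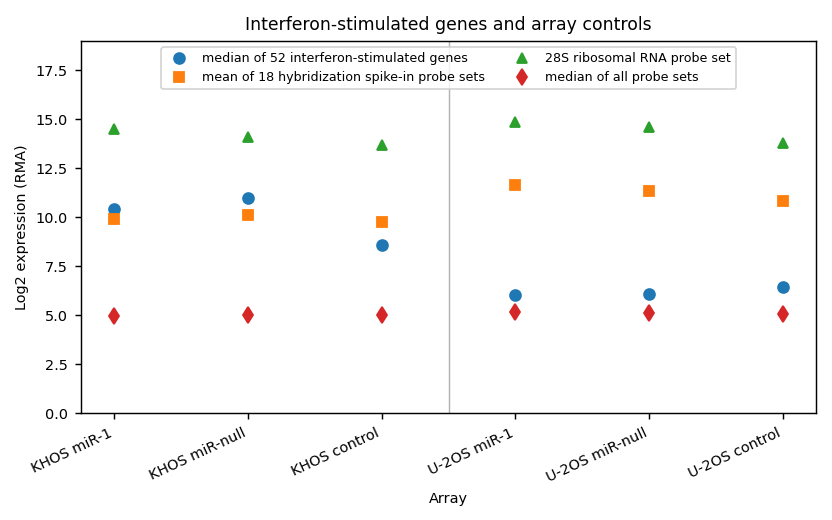
Median log2 expression of the 52 genes (circles), mean of 18 hybridization spike-in probe sets (squares), the 28S ribosomal RNA probe set (triangles) and the median of all probe sets (diamonds) on each array. The median of the 52 genes is 10.40 and 10.96 on the KHOS vector arrays and 8.60 on the KHOS control array, while spike-ins lie between 9.76 and 10.13 on these arrays.

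Upstream of the effectors, a list of 34 interferon ligands, receptors, kinases, STAT and IRF factors, sensors and negative regulators had 31 genes measured here and 26 tested. Of the 7 STAT and IRF factors listed 5 were measured, all of them IRF genes, so no STAT gene has a value here. In KHOS 10 of the 26 rose with a vector and 0 fell, against 3.44% and 0.571% of all genes tested, and in U-2OS 0 rose and 5 fell, against 3.23% and 11.7%. IFNB1, the interferon beta gene, had 8.66 with miR-1 and 9.30 with miR-null in KHOS against 6.60, and 4.30 and 4.49 in U-2OS against 4.01, all below the filter level. It rose by 2.38 ± 0.25 in KHOS. The type III interferon genes IFNL1 and IFNL2 rose by 1.64 and 1.69 in KHOS, and their sequences are close enough for probes to cross-react. IFIH1, which encodes the RNA sensor MDA5, rose by 2.78 ± 0.22 in KHOS and fell in U-2OS (-1.74 ± 0.22), and RIGI, which encodes the related sensor RIG-I, rose by 1.66 in KHOS and fell in U-2OS (-1.03). IRF7 and IRF9, factors that drive these genes, rose by 1.77 and 1.02 in KHOS, and IRF9 fell in U-2OS (-0.75). JAK2, IRF1 and IFI16 rose by 1.17, 1.06 and 1.18 in KHOS, and IFNGR2 and TYK2 fell in U-2OS (-0.77 and -0.61). The receptor chains IFNAR1 and IFNAR2 had differences of -0.05 and -0.15 in KHOS that did not pass. The line difference passed for IFNB1, IFNL2, JAK2, IRF9, RIGI and IFIH1, all larger in KHOS, 6 of 26 against 2.00% of all genes tested. Of these, IFNL2 had 4.79 with miR-1 and 4.83 with miR-null in U-2OS against 4.54. Like IFNB1 it lay below the filter level on every U-2OS array and passed the filter through KHOS. The U-2OS change of both was taken near the floor of the scale.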

How the data were processed

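RNA of 6 pooled samples was measured on Affymetrix U133 Plus 2.0 arrays. Log2 expression was computed by the authors with RMA, per the submitters' processing notes, in Qlucore, which the series' design text names. These log2 values were taken as deposited, and they are not centred per gene. RMA shrinks differences near the floor, and the number of arrays limits the precision. For arrays no count or depth exists. Of 54675 probe sets 62 were controls, 41091 had 1 symbol, 1801 several and 11721 none, and 0 symbols needed an update through their Entrez identifier.

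Genes were fitted with limma 3.58.1 in R 4.3.3 (lmFit, eBayes) over the 12958 genes at or above a mean of 5.11, with Benjamini-Hochberg adjustment at 0.05. Within-line and line-difference values came from 4 means (line by vector), with 2 residual degrees of freedom. Values over both lines came from additive fits of line and vector (3 degrees of freedom) or line and treatment (2). P-values measure the spread between pooled arrays of different treatment, not between cultures. The scripts were tested on simulated data. Members, role groups, upstream and marker lists, motifs and tests were chosen with earlier results of these data known. Values on every array were given for the 3 largest and the smallest KHOS changes of each role group, the 5 most negative miR-1 differences of 1 sign in both lines, the 5 largest U-2OS changes and members called in comparisons with 10 or fewer calls. No gene had a positive miR-1 difference in both lines. Alternatives changed the level filter, the probe sets per gene, the normalization, the variance prior and the arrays used. Promoter and microRNA sequences came from RefSeq (GRCh38.p14).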

Additional observations from a re-analysis of the deposited data

Results flagged for a closer look

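The change between vector and control arrays differed between KHOS and U-2OS, by the test of the difference itself, for 26 of the 51 genes tested. The fitted differences, KHOS change minus U-2OS change on the log2 scale, were 3.06 for IFIT1, 2.73 for IFIT2, 2.77 for IFIT3, 2.35 for OAS3, 3.03 for OASL, 2.74 for MX1, 3.36 for GBP1, 2.08 for GBP3 and 2.65 for BST2. They were 3.81 for IFI27, 2.09 for ISG15, 2.51 for HERC5, 2.84 for HERC6, 4.85 for TRIM22, 2.96 for PARP9, 2.15 for PARP12, 1.78 for DTX3L and 3.79 for RSAD2. For CMPK2 the difference was 2.73, for SAMD9 3.09, for DDX60 2.34, for DDX60L 3.58, for IFI44 2.52, for IFI44L 2.85, for RTP4 3.17 and for SP110 1.71.

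Between miR-1 and miR-null, 25 of the 52 genes were lower in KHOS and higher in U-2OS, against 29.6% of all genes. All 52 were lower in KHOS, so the 25 are those higher in U-2OS, where 46.1% of all genes were, and this difference between the lines was not tested.

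Signals outside the gene comparisons also differed from control. Spike-ins were higher on the vector arrays by 0.27 (KHOS) and 0.68 (U-2OS). For the 28S ribosomal RNA probe set these differences were 0.60 and 0.93. The probe set shared by IFITM1 and IFITM2 was higher by 2.05 on the KHOS vector arrays.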

How the results depend on the processing

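In the fits with 1 value per gene no member that passed changed sign under an alternative, but the medians over both lines, where 0 members passed, did change sign. Comparisons that rest on a control array could not be fitted without it. The share of all genes that passed under each alternative is not given here. The counts below therefore do not set members against other genes. The cause of these moves was not tested, apart from fits that had fewer arrays. With each array left out in turn, members that rose in KHOS numbered 13 to 44 and the median of the 52 genes was 1.21 to 1.93. In U-2OS 0 to 2 rose and 3 to 16 fell. The line difference passed for 2 to 43 genes. KHOS controls were higher than U-2OS controls for 38 to 40 genes and lower for 1 to 2, and on vector arrays the median line gap was 4.13 to 4.97. For both vectors over both lines 0 to 37 rose and 0 to 12 fell (median -0.45 to 1.53). For miR-null against control 0 to 43 rose and 0 to 12 fell (median -0.30 to 1.70). The miR-1 median was -1.05 to 0.42.

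A further quantile normalization gave 18 rises in KHOS, 6 falls in U-2OS and 4 line differences. Letting the prior variance follow the mean gave 21 falls in U-2OS, 47 line differences and 2 rises over both lines, and the 75th percentile filter 1 such rise. Counted in all probe sets, 77 were higher and 1 was lower in KHOS on the vector arrays (median 3.23), that 1 being a probe set of TRIM25, whose other probe set passed as higher, and the median between control arrays was 1.40. With the mean of a gene's probe sets, 2 were lower in the KHOS control and the median on vector arrays was 3.50. Leaving out probe sets ending in x_at or s_at, an alternative added after seeing the data, left 29 rises in KHOS and 27 line differences. No pairing of replicates was possible because the labels number no replicates and each line and treatment has 1 array. Through their line term, the fits over both lines already compare treatments within a line.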
